A study of Bos taurus with 11 samples.

Results

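Amino acid transporters are the membrane proteins that carry amino acids into, out of and between the compartments of a cell. Here 40 transporter genes were described in the mammary gland of Holstein heifer calves, out of 18444 genes that the array measured under a single symbol. They were every measured gene of the solute carrier families SLC1, SLC7, SLC36, SLC38 and SLC43, with some genes named singly. Those were the heavy chains SLC3A1 and SLC3A2 and the SLC6 members SLC6A9, SLC6A14 and SLC6A15. Other SLC6 genes are counted below among further carriers. The list was drawn up with earlier results of these data known. Only SLC38A9 had more than 1 probe set, and its brighter one was used.

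The samples were mammary parenchyma, the epithelial tree with its supporting tissue, of female Holstein calves killed at 54 ± 2 days. Elevated calves (n = 6) drank a mean of 8.4 L of milk replacer per day in 3 meals, which supplied 5.9 ± 0.2 (SE) Mcal of metabolisable energy. Restricted calves (n = 5) drank 4 L per day in 2 meals, which supplied 2.8 ± 0.2 Mcal. The powder held 28% protein and 15% fat in both groups, so elevated calves took in more protein as well as more energy, and the effect of protein, of energy and of meal number cannot be told apart. All calves had starter grain from day 18. Both groups began with 6 calves, but in 1 restricted calf the parenchyma was so small that it was not sampled, so the restricted calves measured are not a random part of their group. The question addressed was whether transcript levels in the gland differ with preweaning nutrition.

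Amino acids are the substrate of milk protein and of growing tissue, and they are also signals, since the kinase complex mTORC1 is switched on at the lysosome when they are plentiful. Exchangers of system L bring in leucine and other large neutral amino acids and pay for them with intracellular glutamine, which sodium-coupled carriers such as SLC1A5 and SLC38A2 accumulate. Many SLC7 proteins reach the cell surface only when joined to an SLC3 heavy chain. In the lactating gland this system supplies casein synthesis, while the gland of a preweaned calf is still building its ducts. The roles given below are those known from human and rodent proteins.

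Values are RMA values on a log2 scale, so a gap of 1 is a doubling of signal. Levels of different genes are not set against each other, because probe sets differ in brightness. The 26773 probe sets of the array were tested together with limma, and differences are elevated minus restricted with the moderated standard error. Each adjusted p is Benjamini-Hochberg adjusted over all probe sets, and each exact permutation p comes from all 462 splits of the calves and is two-sided. Tissue was profiled in bulk, so fewer cells of a type and less RNA per cell cannot be told apart.

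No transporter gene passed the adjustment. At an adjusted p under 0.05 in limma 0 of 40 were called, against 2 probe sets of the whole array (0.00747%). At an unadjusted p under 0.05 there were 10 of 40 transporter genes (25.0%), against 10.3% of all probe sets. Of these, 5 were measured higher in elevated calves (4.95% of all probe sets) and 5 lower (5.33% of all probe sets). The genes measured higher were SLC6A15, SLC7A1, SLC38A4, SLC6A9 and SLC38A1, and those measured lower were SLC36A1, SLC43A2, SLC1A7, SLC7A8 and SLC7A7. The share at an unadjusted p under 0.05 was 12.1% among probe sets with 1 gene symbol and 12.4% among those with a mean of at least 5, so the array background for named or bright genes was somewhat above that of all probe sets. Of the 3 SLC6 genes, which were named singly, 2 were among the 10. The transporter genes are not independent of each other, and the difference between these shares was not tested.

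Differences ran in both directions. The mean was higher in elevated calves for 17 of 40 genes (42.5%), against 50.8% of all probe sets. Their median log2 difference was -0.05, against 0.00 over all probe sets, while the median size of the difference regardless of sign was 0.28, against 0.11. The spread between calves of a group was also somewhat larger, with a median within-group SD of 0.25 for the transporter genes and 0.22 for all probe sets. The groups were without overlap at 1 gene, SLC7A1, against 1.28% of all probe sets.

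**Figure D1:**
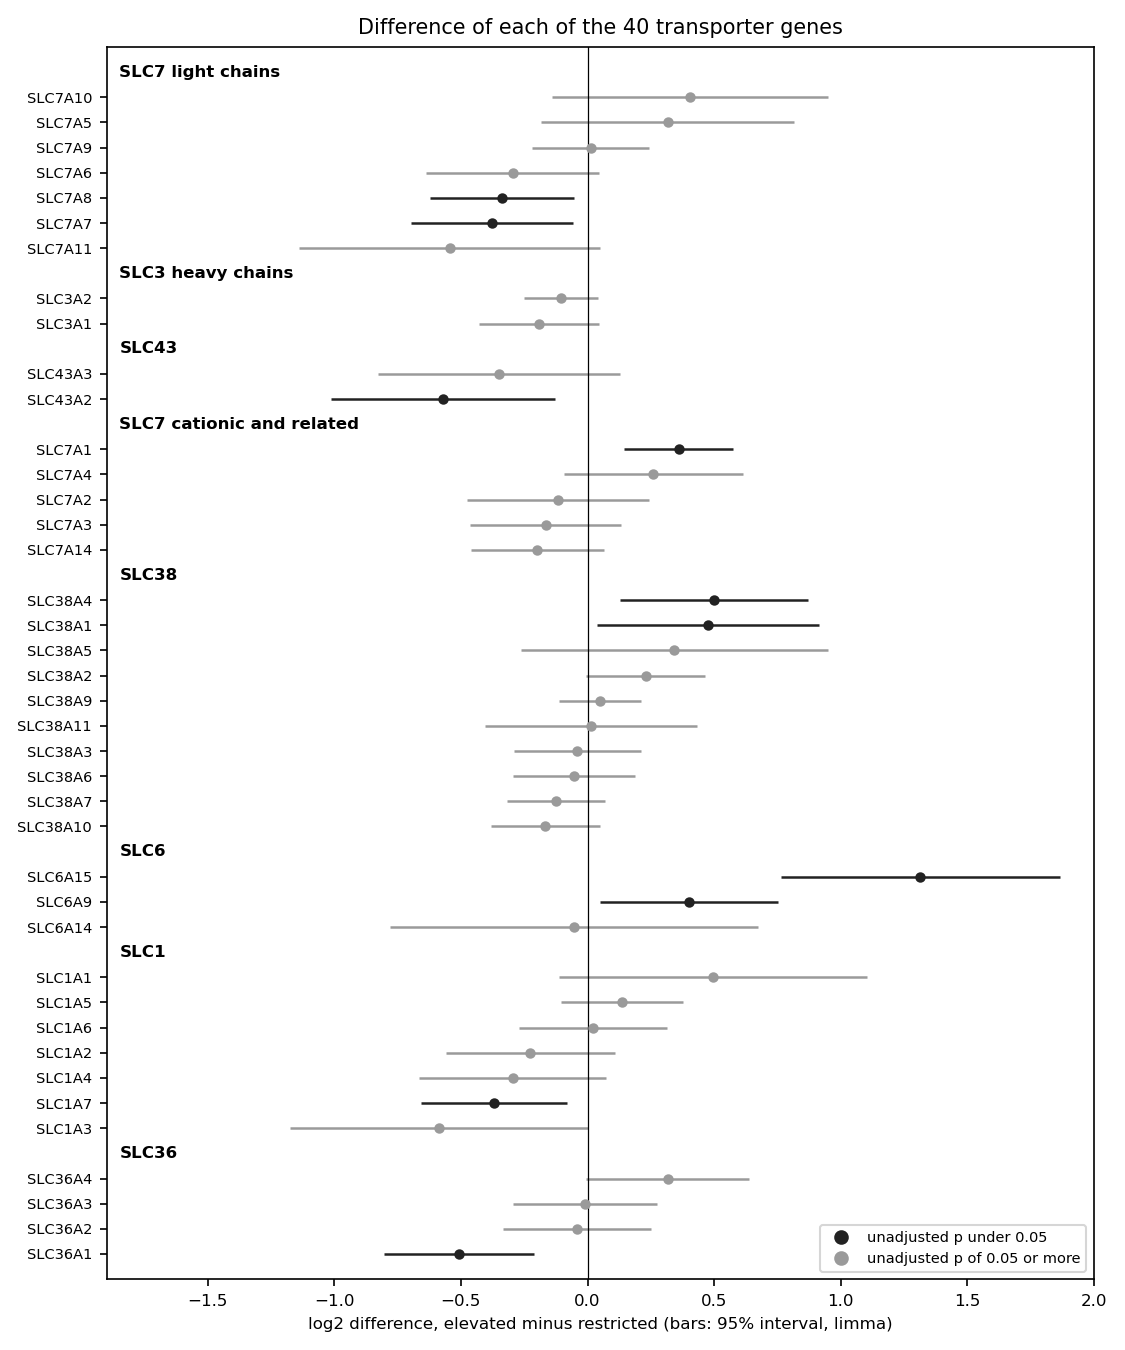
Log2 difference (elevated minus restricted, horizontal axis) of each of the 40 transporter genes, grouped by family or role, with 95% intervals from limma. Black points mark the 10 genes at an unadjusted p under 0.05. SLC6A15 lies farthest from 0, at 1.32, and within most families some genes lie on each side of 0.

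Before the families are described, the calves need a word. Restricted 2 and restricted 4 stood apart in their levels of adipocyte and luminal epithelial markers. The mean of 18 adipocyte markers lay between 7.67 and 9.39 in elevated calves, against 11.07 in restricted 2, 10.55 in restricted 4 and 8.88 to 9.21 in the remaining restricted calves. All 18 markers averaged lower in elevated calves. The mean of 18 luminal epithelial markers lay between 8.70 and 9.53 in elevated calves, against 6.79 in restricted 2, 8.24 in restricted 4 and 8.92 to 9.12 in the remaining restricted calves. Of these, 17 averaged higher in elevated calves. The defining genes told the same calves apart. The epithelial gene EPCAM lay between 8.85 and 9.83 in elevated calves, against 5.98 in restricted 2 and 8.14 in restricted 4, and the adipocyte gene PLIN1 lay between 7.61 and 9.68 in elevated calves, against 11.51 and 10.96 in those restricted calves. Among transporter genes, restricted 2 held the highest value of all 11 calves for 11 genes and the lowest for 9. That is 50.0% of the genes at an extreme, against 29.2% of all probe sets. Elevated 5, whose markers of dividing cells averaged 5.72 against 7.99 to 8.66 in the other 10 calves, came next with 14 genes at an extreme (35.0%, against 31.9% of all probe sets). Differences without restricted 2 and restricted 4, and with the mean of the adipocyte or luminal markers as a covariate (the adipocyte or luminal covariate), are therefore given beside most of the genes described by calf and beside some others.

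**Figure D2:**
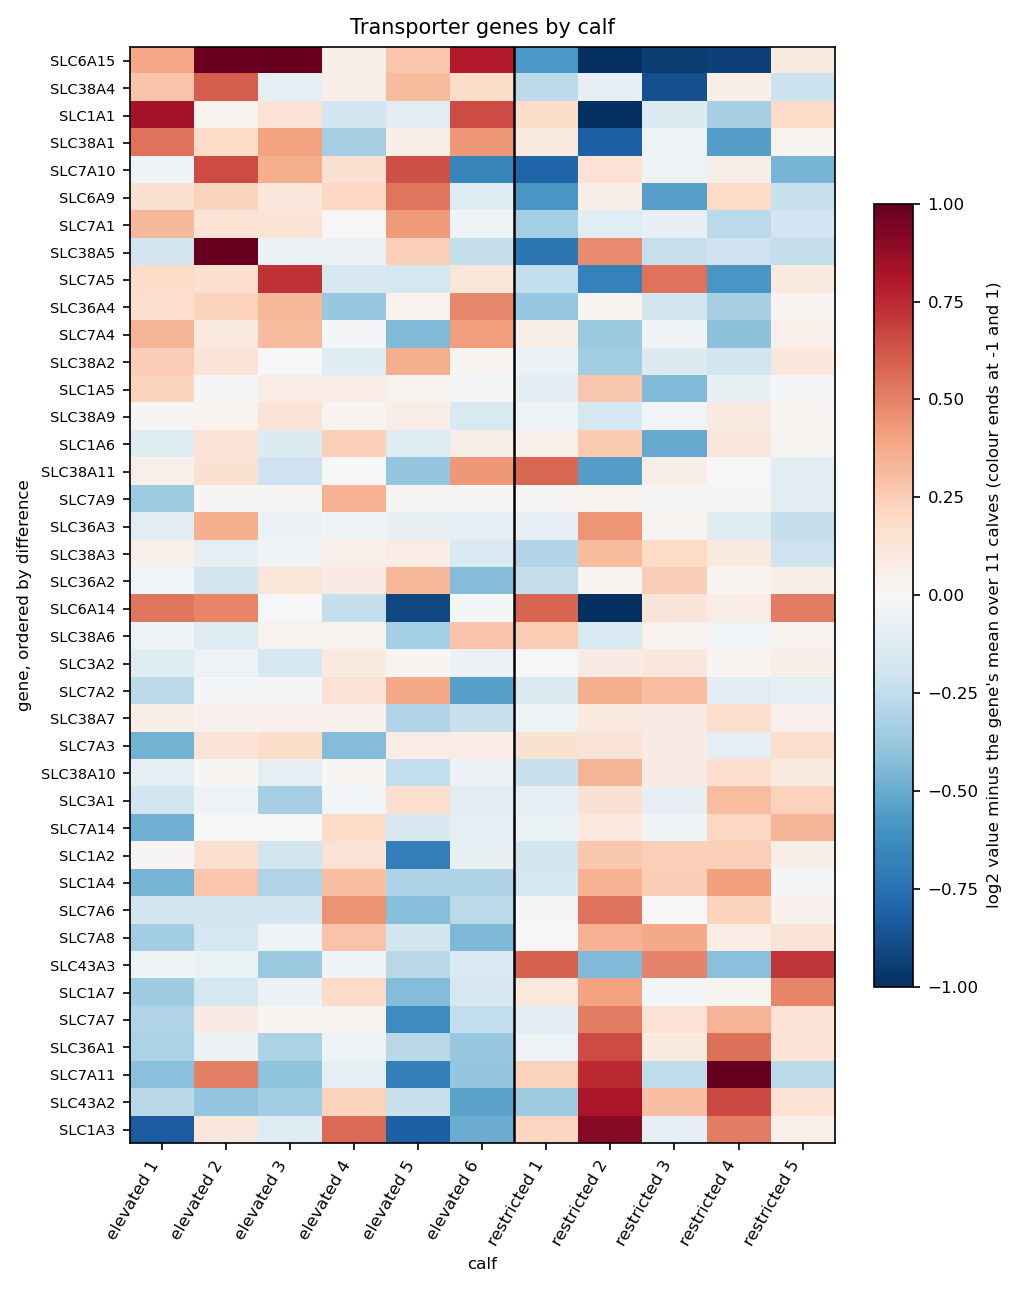
Each of the 40 transporter genes (rows, ordered from the most positive to the most negative difference) in each calf (columns, elevated calves left of the line), as log2 value minus the gene's mean over 11 calves. Restricted 2 and restricted 4 share blue cells at SLC6A15, SLC1A1 and SLC38A1 and red cells at SLC36A1, SLC43A2, SLC7A11 and SLC1A3.

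The sodium-coupled SLC6 genes held the most distinct member. SLC6A15, a carrier of branched-chain amino acids and proline best known from neurons, stood at 4.64, 5.24, 5.33, 4.32, 4.54 and 5.05 in elevated calves 1 to 6, against 3.68, 3.03, 3.31, 3.33 and 4.35 in restricted calves 1 to 5. The groups overlapped by a hair, since restricted 5 lay just above elevated 4, and the other restricted calves lay below every elevated calf. Mean levels were 4.85 ± 0.41 (SD, n = 6) for elevated calves and 3.54 ± 0.51 (SD, n = 5) for restricted calves. Their gap of 1.32 ± 0.25 (SE) on the log2 scale, or 2.49-fold, had a limma adjusted p of 0.157, an unadjusted p of 2.4e-04 and an exact two-sided permutation p of 0.00433. These levels lie under every array's median of 6.37 to 6.45. With a mean of 4.26 over all calves, under 5, the gene is among the dim members. It could not be followed with dim probe sets left out. The difference was 1.08 without restricted 2 and restricted 4, and 0.88 with the adipocyte covariate.

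SLC6A9, the glycine carrier GLYT1, ran from 7.77 to 8.43 in elevated calves with a median of 8.08, against 7.32, 7.96, 7.35, 8.10 and 7.68 in restricted calves 1 to 5. The low restricted calves were 1 and 3, and restricted 2 and 4 lay within the elevated range. Between the groups the log2 difference was 0.40 ± 0.16 (SE; limma adjusted p = 0.431; exact permutation p = 0.0455). Unlike that of SLC6A15 it was larger without restricted 2 and restricted 4 (0.63) and with the adipocyte covariate (0.64). SLC6A14, a broad carrier of neutral and cationic amino acids found in epithelia, ran from 4.97 to 6.41 in elevated calves, against 4.73 to 6.46 in restricted calves. Its lowest values were those of restricted 2 and elevated 5, and its difference of -0.05 (95% interval -0.78 to 0.67) became -0.66 with the adipocyte covariate.

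Among the cationic amino acid transporters, SLC7A1 was the one that parted the groups. SLC7A1 is the main carrier of arginine and lysine in many cell types. It stood at 8.69, 8.51, 8.51, 8.38, 8.79 and 8.33 in elevated calves 1 to 6, against 8.03, 8.26, 8.30, 8.10 and 8.18 in restricted calves 1 to 5. Every elevated calf lay above every restricted calf, although the gap between elevated 6 and restricted 3 was small. Elevated calves averaged 8.53 ± 0.18 (SD, n = 6), restricted calves 8.17 ± 0.11 (SD, n = 5), and the log2 gap was 0.36 ± 0.10 (SE) or 1.28-fold (limma adjusted p = 0.293; exact permutation p = 0.00433). The difference was also 0.36 without restricted 2 and restricted 4, 0.35 with the adipocyte covariate and 0.39 with the luminal covariate. Leaving out single calves moved it between 0.31 and 0.40.

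The other genes of this group differed in either direction. SLC7A2, which also carries arginine and is known from liver and activated macrophages, differed by -0.12 (95% interval -0.47 to 0.24), and SLC7A3 by -0.17. SLC7A14, a lysosomal relative, differed by -0.20, and SLC7A4, whose substrate is not settled, by 0.26, which was 0.09 without restricted 2 and restricted 4 and -0.01 with the adipocyte covariate. None of these 4 had an unadjusted p under 0.05.

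System L and its relatives are exchangers built from an SLC7 light chain and a heavy chain. SLC7A5, the light chain of LAT1 and the classic supplier of leucine to mTORC1, ran from 7.14 to 8.04 in elevated calves with a median of 7.46, against 7.07, 6.64, 7.86, 6.74 and 7.41 in restricted calves 1 to 5. The groups overlapped widely, with restricted 2 and 4 the lowest of all calves and restricted 3 close to the highest. Elevated minus restricted, this came to 0.32 ± 0.23 (SE; limma adjusted p = 0.669; 95% interval -0.18 to 0.82). It was 0.01 without restricted 2 and restricted 4 and -0.16 with the adipocyte covariate, so its sign was not settled.

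SLC3A2, the heavy chain 4F2hc that LAT1 and its relatives share, ran from 9.97 to 10.24 in elevated calves with a median of 10.09, against 10.15, 10.23, 10.26, 10.17 and 10.21 in restricted calves 1 to 5. The restricted calves sat in the upper part of the elevated range, with restricted 3 just above it. The log2 difference was -0.11 ± 0.07 (SE; limma adjusted p = 0.623), and its 95% interval of -0.25 to 0.04 leaves out a difference as large as that of SLC7A1. SLC3A1, the heavy chain of renal and intestinal cystine transport, differed by -0.19 and its partner SLC7A9 by 0.01, both at dim levels.

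The light chains SLC7A8 and SLC7A7 were measured lower in elevated calves. SLC7A8, the light chain of LAT2, ran from 8.84 to 9.57 in elevated calves with a median of 9.10, against 9.28, 9.63, 9.66, 9.36 and 9.42 in restricted calves 1 to 5. Elevated 4 lay among the restricted calves and the other elevated calves below all of them. On the log2 scale the groups differed by -0.34 ± 0.13 (SE; limma adjusted p = 0.423; exact permutation p = 0.0368), -0.32 without restricted 2 and restricted 4 and -0.25 with the adipocyte covariate.

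SLC7A7, the light chain that exports cationic amino acids and is abundant in macrophages, ran from 7.03 to 7.73 in elevated calves with a median of 7.53, against 7.54, 8.16, 7.79, 7.99 and 7.78 in restricted calves 1 to 5. Restricted 1 overlapped with elevated calves and the others did not. Its difference of -0.38 ± 0.15 (SE; limma adjusted p = 0.423; exact permutation p = 0.039) was -0.23 without restricted 2 and restricted 4. The mean of 10 macrophage markers lay between 7.81 and 8.29 in elevated calves, against 8.02 to 8.61 in restricted calves, and 4 of 10 averaged higher in elevated calves. Restricted 2 and 4 were highest both for SLC7A7 and for these markers. Their part in the difference was not tested.

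SLC7A11, the cystine and glutamate exchanger that feeds glutathione synthesis, ran from 5.72 to 6.91 in elevated calves with a median of 6.01, against 6.64, 7.15, 6.15, 7.43 and 6.14 in restricted calves 1 to 5. The high values were those of restricted 2 and 4 and of elevated 2. This gave a log2 difference of -0.54 ± 0.27 (SE; limma adjusted p = 0.527; exact permutation p = 0.113), and -0.15 without restricted 2 and restricted 4. SLC7A6, the relative of SLC7A7, differed by -0.30, and by -0.15 without the same 2 calves. SLC7A10, which carries alanine, serine and cysteine and is expressed in brain and white fat, differed the other way, by 0.41, and by 0.62 without them; neither gene had an unadjusted p under 0.05 with all calves.

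Heavy and light chains form 1 complex, so their levels were followed across the 11 calves in 7 known pairs. SLC3A2 and SLC7A8 had the closest relation, with Pearson's r = 0.74 (permutation p = 0.0102, 0.0713 adjusted over the 7 pairs) and Spearman's rho = 0.82 (permutation p = 0.00329, 0.023 adjusted). Without elevated 3 and elevated 1, the calves farthest from the median of SLC3A2, r was 0.93. Over deviations from each diet's mean it was 0.58, and over the 6 elevated calves alone 0.50. The permutations took all 11 calves together, and both genes averaged lower in elevated calves, so these p-values also carry the group difference. SLC3A2 and SLC7A5, the chains of LAT1, had r = -0.47 (permutation p = 0.142, 0.332 adjusted) and rho = -0.38 (permutation p = 0.251, 0.42 adjusted). Without elevated 3 and elevated 1 r was -0.03, so the value over all calves rested on them. Over deviations from each diet's mean r was -0.33, and over the 6 elevated calves alone it was -0.90, given as a description. The other pairs had r between -0.12 and 0.60 and rho between -0.05 and 0.61, with adjusted permutation p-values of at least 0.177 for both measures. All values of a calf come from the same array.

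The SLC43 genes encode carriers that work without sodium or exchange. SLC43A2, the branched-chain amino acid carrier LAT4, ran from 6.89 to 7.65 in elevated calves with a median of 7.12, against 7.07, 8.24, 7.73, 8.09 and 7.57 in restricted calves 1 to 5. Restricted 2 and 4 lay highest, and restricted 1 and 5 lay within the elevated range. The log2 difference was -0.57 ± 0.20 (SE; limma adjusted p = 0.386; exact permutation p = 0.039). It was -0.29 without restricted 2 and restricted 4 and -0.20 with the adipocyte covariate, where it no longer had an unadjusted p under 0.05 (0.153 and 0.300).

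SLC43A3, named here after its values were seen, split the restricted calves. It is a relative of the amino acid carriers that is known to carry purine bases. It ran from 7.46 to 7.78 in elevated calves with a median of 7.72, against 8.42, 7.39, 8.33, 7.41 and 8.54 in restricted calves 1 to 5. Restricted 1, 3 and 5 lay above every elevated calf, while restricted 2 and 4 lay below every one of them. With all calves the log2 difference was -0.35 ± 0.22 (SE; limma adjusted p = 0.618). Without restricted 2 and restricted 4 it was -0.76, with a limma adjusted p of 0.041, the only call of a transporter gene under any of the 23 alternatives. In that setting 25 of 26773 probe sets had an adjusted p under 0.05, against 2 with all calves. These 2 calves were left out because earlier results had shown their adipocyte markers, and the call was absent when either was left out alone (adjusted p = 0.503 and 0.564).

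The SLC38 family of sodium-coupled neutral carriers had 2 of its 10 genes at an unadjusted p under 0.05, against 10.3% of all probe sets, and both were measured higher in elevated calves (4.95% of all probe sets). SLC38A4, a system A carrier best known from liver and placenta, ran from 7.56 to 8.26 in elevated calves with a median of 7.89, against 7.39, 7.57, 6.78, 7.72 and 7.44 in restricted calves 1 to 5. Restricted 3 lay far below the rest, and only restricted 2 and 4 reached into the elevated range. The groups' log2 gap was 0.50 ± 0.17 (SE) or 1.41-fold (limma adjusted p = 0.372; exact permutation p = 0.013). It was 0.68 without restricted 2 and restricted 4 and 0.35 without restricted 3.

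SLC38A1, which brings in glutamine, ran from 9.97 to 10.85 in elevated calves with a median of 10.60, against 10.40, 9.49, 10.26, 9.75 and 10.33 in restricted calves 1 to 5. The low calves were restricted 2 and 4, followed by elevated 4. Its difference of 0.48 ± 0.20 (SE; limma adjusted p = 0.452; exact permutation p = 0.0541) came down to 0.19 without restricted 2 and restricted 4, to 0.13 with the luminal covariate and to 0.03 with the adipocyte covariate. Its neighbour SLC38A2, the system A carrier that cells induce when amino acids run short, ran from 11.24 to 11.72 in elevated calves with a median of 11.44, against 11.30, 11.01, 11.23, 11.17 and 11.47 in restricted calves 1 to 5. Elevated 5 was highest and restricted 2 lowest. Its log2 difference was 0.23 ± 0.11 (SE; limma adjusted p = 0.495; exact permutation p = 0.0584), and 0.13 without restricted 2 and restricted 4.

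SLC38A1, SLC38A2 and SLC38A4 follow one another as protein-coding genes on the cattle assembly ARS-UCD2.0. All averaged higher in elevated calves, but SLC38A4 gained and SLC38A1 and SLC38A2 lost in size when restricted 2 and restricted 4 were left out. SLC36A2 lies between SLC36A1 and SLC36A3 in the same way, and the differences of those genes are given with their family.

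SLC38A9 is the lysosomal arginine sensor that tells mTORC1 of a full lysosome. It ran from 8.84 to 9.13 in elevated calves with a median of 9.02, against 8.94, 8.81, 8.96, 9.08 and 9.01 in restricted calves 1 to 5. The groups lay on top of each other. The log2 difference was 0.05 ± 0.07 (SE; limma adjusted p = 0.855; 95% interval -0.11 to 0.21), and that of the second probe set was 0.10 ± 0.09 (SE). The other 6 genes of the family, SLC38A3, SLC38A5, SLC38A6, SLC38A7, SLC38A10 and SLC38A11, differed by -0.17 to 0.34, each with an unadjusted p of at least 0.115. The highest of these differences, that of the glutamine carrier gene SLC38A5, was 0.12 without elevated 2.

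The SLC1 family joins the glutamate carriers to the neutral exchangers ASCT1 and ASCT2. SLC1A7, a glutamate carrier best known from the retina, ran from 4.49 to 5.12 in elevated calves with a median of 4.76, against 5.04, 5.33, 4.92, 4.96 and 5.42 in restricted calves 1 to 5. Elevated 4 was the 1 elevated calf inside the restricted range. Between the groups the log2 difference was -0.37 ± 0.13 (SE; limma adjusted p = 0.39; exact permutation p = 0.0303), at levels under the array medians, and -0.36 without restricted 2 and restricted 4.

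SLC1A3, the glutamate and aspartate carrier of glia and of several stromal cells, ran from 8.14 to 9.53 in elevated calves with a median of 8.65, against 9.18, 9.88, 8.88, 9.48 and 9.01 in restricted calves 1 to 5. Elevated 1 and 5 lay lowest, and elevated 4 lay above all restricted calves but restricted 2. Its difference of -0.59 ± 0.27 (SE; limma adjusted p = 0.489; exact permutation p = 0.0844) was -0.33 without restricted 2 and restricted 4 and -0.21 with the adipocyte covariate. SLC1A1, the glutamate carrier of epithelia, leaned the other way, by 0.50 ± 0.28 (SE). It was lowest in restricted 2, at 5.07, and its difference was 0.15 without restricted 2 and restricted 4 and -0.01 with the luminal covariate.

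SLC1A5, the glutamine exchanger ASCT2, ran from 8.75 to 8.99 in elevated calves with a median of 8.82, against 8.66, 9.03, 8.33, 8.69 and 8.75 in restricted calves 1 to 5. Restricted 2 was the highest calf of all and restricted 3 the lowest. Elevated minus restricted, this came to 0.14 ± 0.11 (SE; limma adjusted p = 0.708; 95% interval -0.10 to 0.38). It was 0.25 without restricted 2 and restricted 4 and 0.04 without restricted 3. SLC1A4, which encodes ASCT1, differed by -0.29 and by -0.15 without restricted 2 and restricted 4. SLC1A2, the chief glutamate carrier of brain, differed by -0.23 and the cerebellar SLC1A6 by 0.02.

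The proton-coupled SLC36 carriers held the lowest-p gene of those measured lower. SLC36A1, which moves small neutral amino acids out of lysosomes and across the gut wall, stood at 8.76, 9.01, 8.76, 9.03, 8.80 and 8.70 in elevated calves 1 to 6, against 9.02, 9.73, 9.17, 9.62 and 9.21 in restricted calves 1 to 5. The groups met at elevated 4 and restricted 1 and were otherwise apart, and restricted 2 and 4 lay highest. Elevated calves averaged 8.84 ± 0.14 (SD, n = 6), restricted calves 9.35 ± 0.31 (SD, n = 5), and the log2 gap was -0.51 ± 0.13 (SE; limma adjusted p = 0.293; exact permutation p = 0.00433). It was -0.29 without restricted 2 and restricted 4 and -0.25 with the adipocyte covariate.

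SLC36A4, a carrier with high affinity for proline and tryptophan, ran from 7.34 to 8.20 in elevated calves with a median of 7.92, against 7.34, 7.74, 7.54, 7.39 and 7.74 in restricted calves 1 to 5. Elevated 4 was as low as the lowest restricted calf, while the other elevated calves lay above all restricted calves. Its difference was 0.32 ± 0.15 (SE; limma adjusted p = 0.494; exact permutation p = 0.0758), and 0.42 without elevated 4. SLC36A2 and SLC36A3 differed by -0.04 and -0.01 at dim levels.

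**Figure D3:**
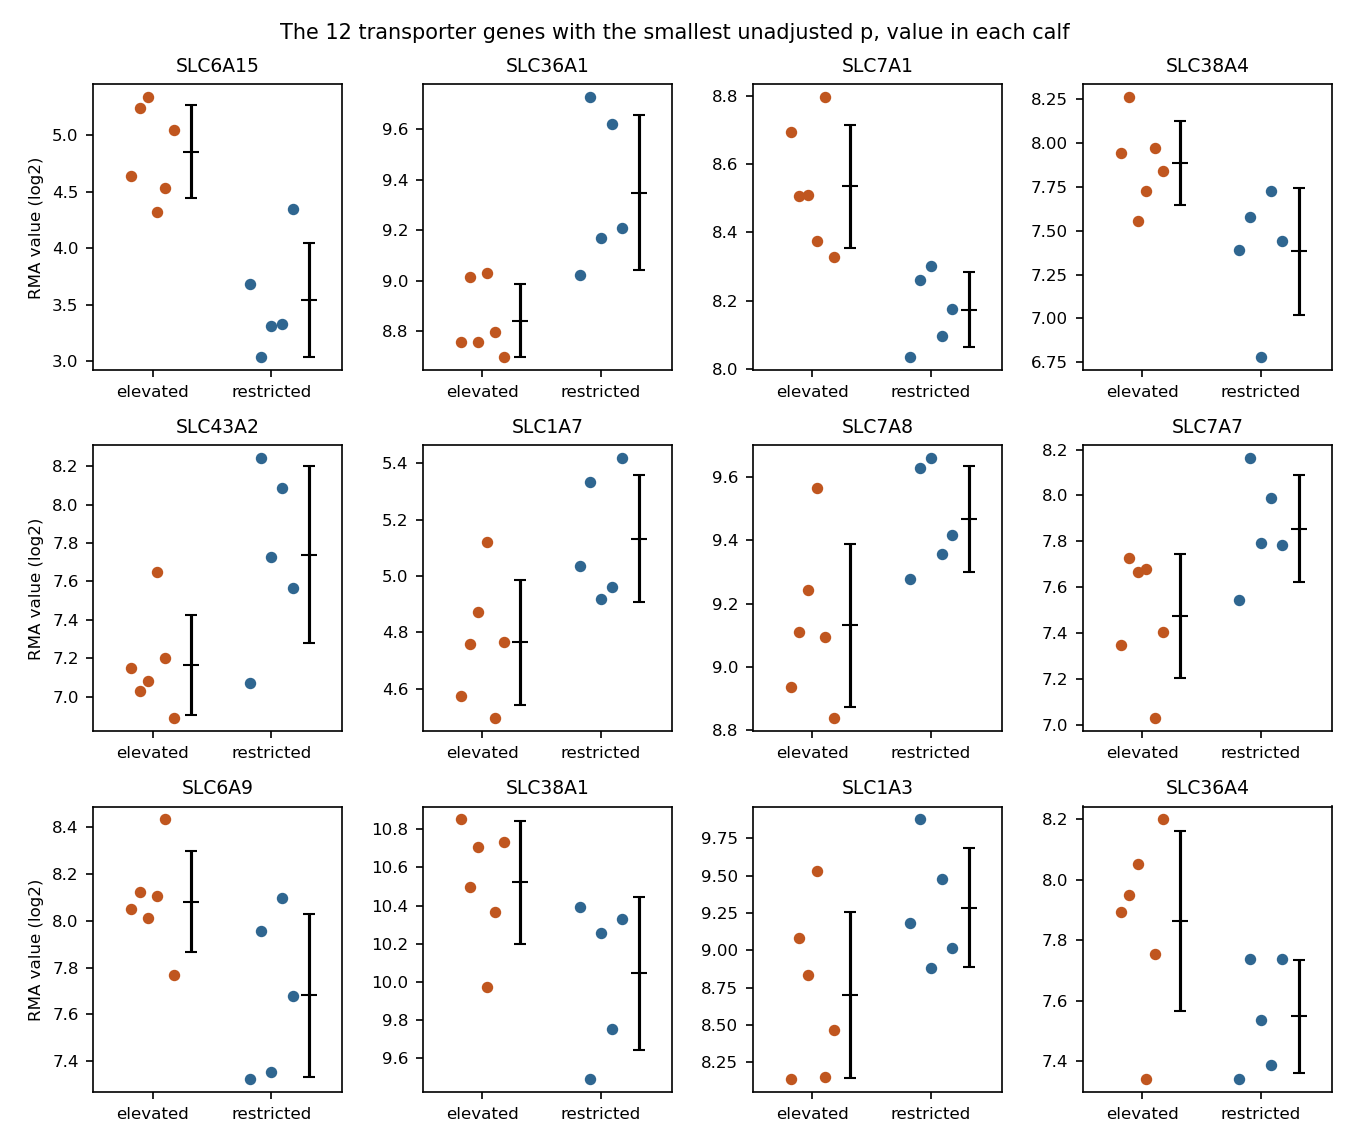
RMA value (log2, vertical axis, a separate scale for each gene) in each elevated and restricted calf for the 12 transporter genes with the smallest unadjusted p; bars show the mean and SD of each group. At SLC7A1 the groups do not overlap, and at SLC36A1 and SLC6A15 they meet at a single pair of calves.

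The transporter genes fell into those whose difference shrank once restricted 2 and restricted 4 were set aside and those whose difference did not. With the adipocyte covariate, 4 of the 10 genes kept an unadjusted p under 0.05, namely SLC6A15, SLC7A1, SLC38A4 and SLC6A9, all measured higher in elevated calves, and SLC43A3 joined them. That made 5 of 40 genes, against 8.92% of all probe sets. Without restricted 2 and restricted 4, 6 of the 10 kept it, and SLC1A5 and SLC43A3 joined. That made 8 of 40 genes, against 8.72% of all probe sets. With the luminal covariate 5 of the 10 kept it, namely SLC6A15, SLC7A1, SLC38A4, SLC6A9 and SLC36A1. There 5 others joined, SLC7A10, SLC38A5, SLC1A5, SLC6A14 and SLC43A3, so that 7 were measured higher and 3 lower. That made 10 of 40 genes, against 10.4% of all probe sets. How many probe sets of the whole array kept an unadjusted p under 0.05 was not counted. SLC6A15, SLC7A1 and SLC38A4 had an unadjusted p under 0.05 under every alternative that could be run for them. Skeletal muscle markers also averaged higher in elevated calves, at 14 of 14 genes. Of these, 8 had an unadjusted p under 0.05 in limma (57.1%, against 10.3% of all probe sets). Elevated 5 had their highest mean (7.02) and the highest SLC7A1 and SLC6A9, while SLC6A15 was highest in elevated 3 and SLC38A4 in elevated 2. No muscle covariate was fitted. The part of adipose, epithelial and muscle content in these differences was not tested.

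**Figure D4:**
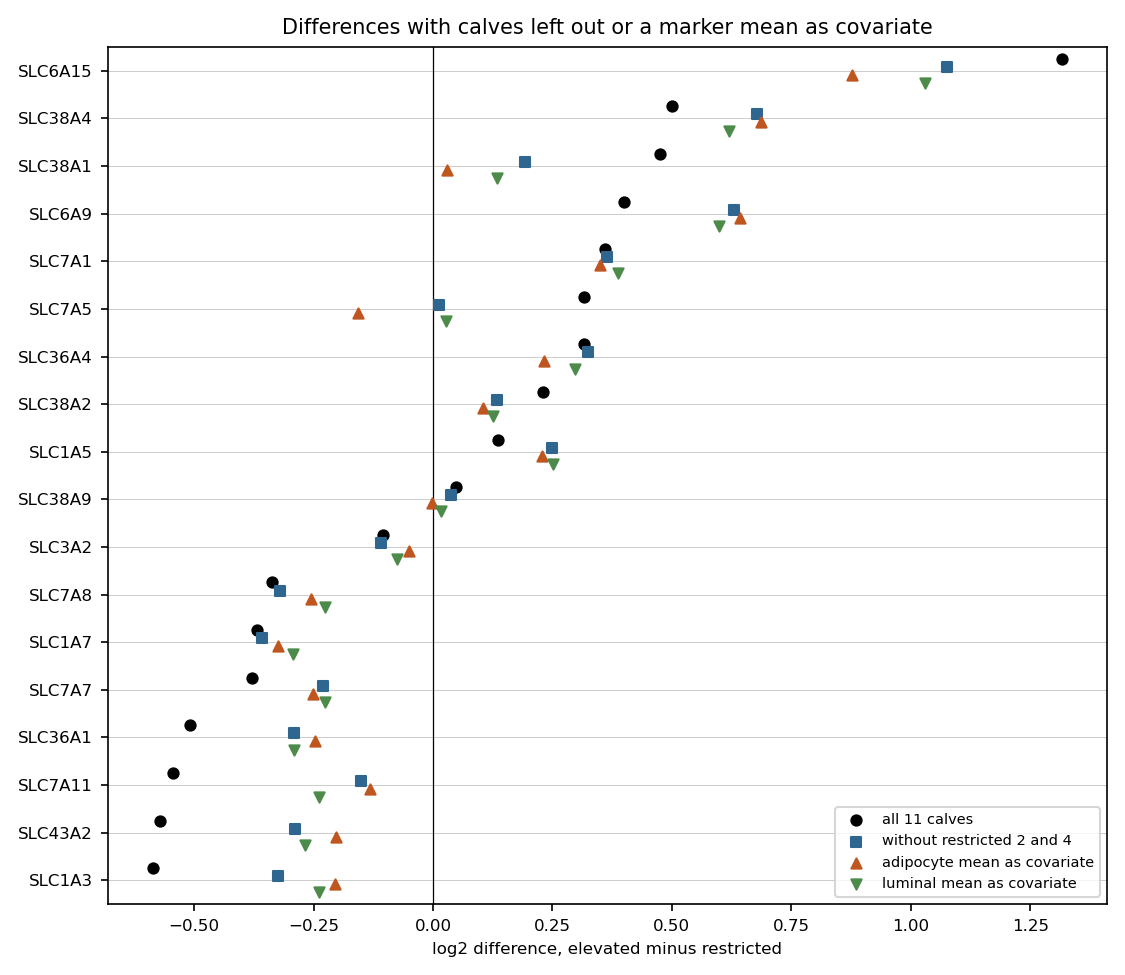
Log2 difference (elevated minus restricted, horizontal axis) of the 18 transporter genes given by calf under the rule for named genes, with all calves, without restricted 2 and restricted 4, and with the adipocyte or luminal marker mean as a covariate. SLC7A1 stays between 0.35 and 0.39, SLC38A4 and SLC6A9 move away from 0, and SLC38A1, SLC43A2 and SLC1A3 move towards it.

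**Figure D5:**
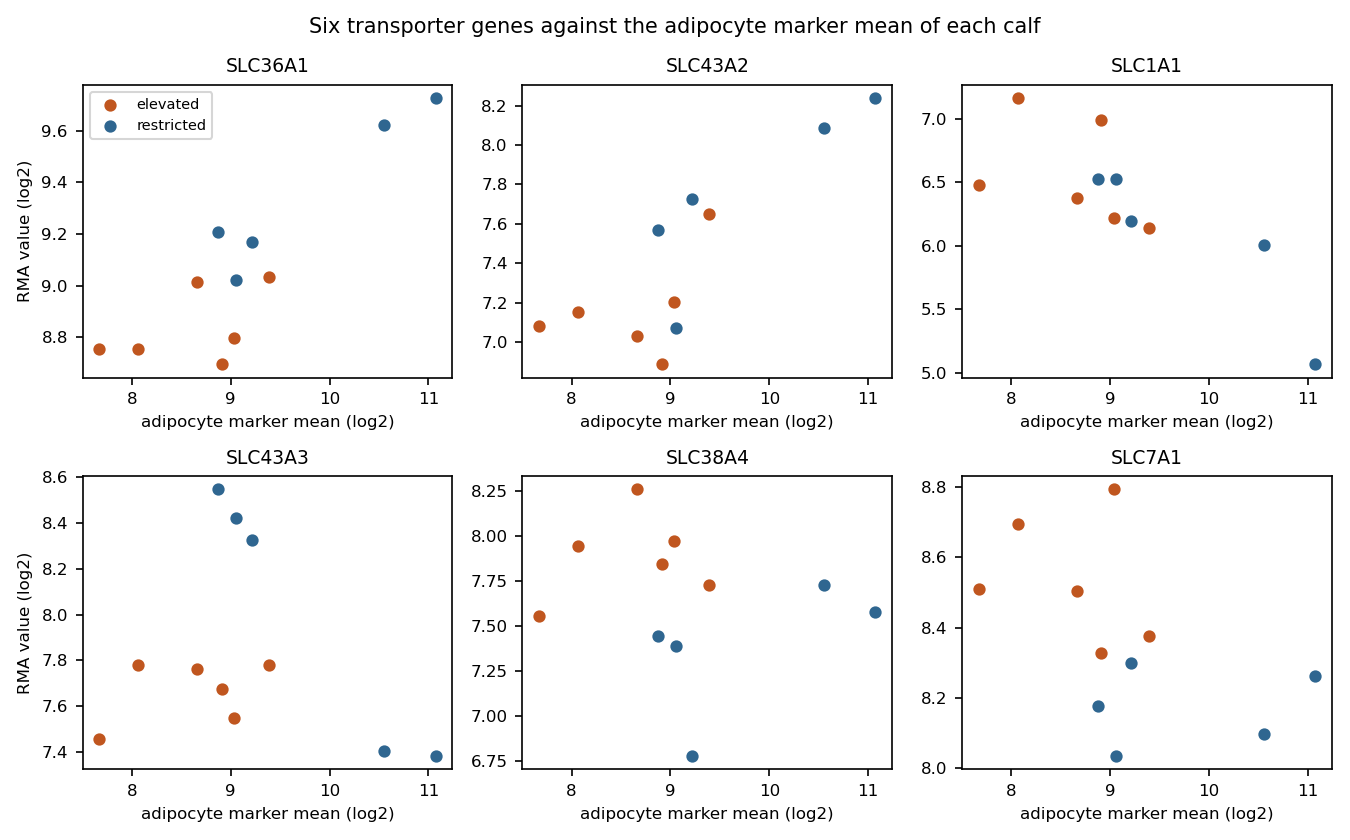
RMA value (log2, vertical axis) of 6 transporter genes against the mean of 18 adipocyte markers (log2, horizontal axis) in each of the 11 calves, chosen after their values were seen. Restricted 2 and restricted 4, at 11.07 and 10.55 on the horizontal axis, lie highest for SLC36A1 and SLC43A2 and lowest for SLC1A1 and SLC43A3.

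Other genes of amino acid transport and use were then counted from lists of known genes, and 0 of their members had a limma adjusted p under 0.05. Among 26 further carriers of amino acids and peptides, 2 were at an unadjusted p under 0.05 (7.69%, against 10.3% of all probe sets), both measured higher in elevated calves. They were SLC16A10, an exporter of aromatic amino acids, with a log2 difference of 0.29 ± 0.11 (SE), and SLC17A8, a vesicular glutamate carrier, with 0.35 ± 0.13 (SE). The level of SLC17A8 was dim, with a mean of 4.48 over all calves. CTNS, which releases cystine from lysosomes, differed by -0.20, and SLC17A7, another vesicular glutamate carrier, by -0.91, with elevated 5 at 5.62 against at least 8.01 in each other calf. Without elevated 5 the difference of SLC17A7 was -0.42, and that of CTNS was -0.08 without restricted 2 and restricted 4.

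A further list held 38 genes of the mTORC1 and GCN2 kinase pathways, which sense amino acid supply, and of the response to them. Of the 38, 6 were at an unadjusted p under 0.05 (15.8%), against 10.3% of all probe sets and 12.1% of those with 1 gene symbol. Of the 6, 1 was measured higher in elevated calves (4.95% of all probe sets) and 5 lower (5.33% of all probe sets). SESN3, a sestrin that restrains mTORC1, differed by -0.30 ± 0.09 (SE; limma adjusted p = 0.345), and RHEB, the small GTPase that activates mTORC1, by -0.26 ± 0.09 (SE; limma adjusted p = 0.356). The stress-response gene NUPR1 differed by 0.60 and the transcription factor gene ATF5 by -1.01. Without restricted 2 and restricted 4 these differences were 0.33 for NUPR1, -0.44 for ATF5 and -0.19 for SESN3. With the adipocyte covariate they were 0.26 for NUPR1, -0.27 for ATF5, -0.17 for SESN3 and -0.19 for RHEB. Each then had a limma unadjusted p of at least 0.093. For ATF5 the elevated calves ran from 8.45 to 9.23, against 9.24 to 11.10 in restricted calves. Its groups thus did not overlap, but by a small gap. RRAGC, a GTPase that docks mTORC1 on the lysosome and is named here because its groups did not overlap either, differed by -0.20. With the adipocyte covariate it differed by -0.19 (limma unadjusted p = 0.0558). ATF5 and RRAGC were the 2 of 38 genes without overlap, against 1.28% of all probe sets.

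The 19 measured aminoacyl-tRNA synthetases, which load amino acids onto their tRNAs, had a median log2 difference of 0.01, and 0 of them were at an unadjusted p under 0.05, against 10.3% of all probe sets. SARS1, KARS1, NARS1 and VARS1 had the smallest p, with differences of 0.20, 0.12, -0.20 and 0.18, which became 0.19, 0.07, -0.16 and 0.31 without restricted 2 and restricted 4. Of 34 enzymes of amino acid metabolism, 2 were at an unadjusted p under 0.05 (5.88%, against 10.3% of all probe sets), both measured lower in elevated calves. GPT2, the mitochondrial alanine aminotransferase, differed by -0.72 ± 0.24 (SE; limma adjusted p = 0.355). PSPH, the last enzyme of serine synthesis, differed by -0.76 ± 0.29 (SE; limma adjusted p = 0.423) and stood at 8.11 in restricted 2. Without restricted 2 and restricted 4 the difference was -0.70 for GPT2 and -0.34 for PSPH. DLD, a subunit of branched-chain keto acid breakdown, differed by -0.23, and by -0.07 without these calves. ARG1, which cleaves arginine, differed by 0.34 at a dim level.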

How the data were processed

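Each calf had 1 array, for which the authors deposited log2 RMA values of every probe set. RMA is named, with no version or settings, in the submitters' processing notes, and the log2 scale was read from the values (1.08 to 14.20). RNA of an integrity number above 7.0 was labelled, 100 ng per sample, per the labels' protocols. Arrays have no read depth, so their number limits the precision. Probe sets took genes from the platform annotation: 18790 had 1 symbol, 385 several and 7598 none. Of the 40 members, 39 were found by gene number among the reference genes; SLC1A6 had no number and keeps the annotation's name. The transporter genes used 41 probe sets. No coordinates or sequences are printed, since no source used here names the array's build.

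The test was limma 3.58.1 in R 4.3.3 (lmFit, eBayes, no covariate or filter, all probe sets). It was tested on simulated data. Correlations used 100000 permutations. Groups and replicate numbers came from the titles; nothing in the values was used to group calves. The members, lists and tests were chosen with earlier results of these data known. Named genes were the 12 transporter genes with the smallest p, SLC7A5, SLC3A2, SLC1A5, SLC38A2, SLC7A1, SLC7A11 and SLC38A9 always, and up to 4 genes of each companion list; others are marked. The alternatives were quantile normalisation, median centring, leaving out dim probe sets (mean under 5) or those without 1 symbol, trended and robust eBayes, array weights, the replicate block, marker covariates, averaging probe sets by gene, and leaving out calves. Marker lists for basal cells, endothelium, lymphocytes, muscle, nerve and red blood cells were also averaged per calf: elevated minus restricted means were 0.07, -0.04, 0.02, 0.69, 0.28 and -0.30. Figures were drawn with matplotlib 3.10.9.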

Additional observations from a re-analysis of the deposited data

Results flagged for a closer look

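In 5 of 80 groups of calves 1 value lay far from the others of its group. Chance alone flags about 1 group in 20, so this number is near what chance gives. SLC1A5 stood at 8.99 in elevated 1, against 8.75 to 8.84 in the other elevated calves. SLC7A6 stood at 9.14 in elevated 4, against 8.27 to 8.51. SLC36A3 stood at 3.45 in elevated 2, against 2.98 to 3.06, and SLC38A5 at 7.24 in the same calf, against 5.76 to 6.23. SLC7A9 stood at 4.03 in restricted 5, where the rest of its group lay between 4.15 and 4.17, a small gap at a dim level. Restricted 1, 3 and 4 held the same value there, so the chance rate does not hold for it. Exact ties also occurred in other groups, as at SLC38A5 in elevated 3 and 4, so that rate is only approximate. The cause of these values was not tested.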

How the results depend on the processing

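Across 23 alternatives the number of transporter genes past the adjusted threshold stayed at 0, except without restricted 2 and restricted 4 together, where it was 1 (SLC43A3). There 25 of 26773 probe sets passed it, against 2 with all calves. The number at an unadjusted p under 0.05 was 10 with all calves, 5 with the adipocyte mean as a covariate (8.92% of all probe sets), and between 8 and 15 when single calves were left out, with the highest count without elevated 4, where 12.2% of all probe sets passed, against 8.40% to 10.3% without any other single calf. The number of genes without overlap was 1 with all calves, 4 without restricted 2 and restricted 4 together (5.46% of all probe sets), and between 1 and 7 when single calves were left out, again highest without elevated 4 (3.35% of all probe sets, against 1.67% to 2.33% without any other single calf); fewer calves make non-overlap easier. The median difference lay between -0.07 and -0.03. The sign changed under at least 1 alternative at 13 of 40 genes, none of them at an unadjusted p under 0.05 with all calves or where the sign changed: SLC1A1, SLC7A2, SLC7A4, SLC7A5 and SLC38A9 under marker covariates alone, and SLC1A6, SLC6A14, SLC7A9, SLC36A2, SLC36A3, SLC38A3, SLC38A6 and SLC38A11, whose differences lay near 0, under left-out calves or other settings. With dim probe sets left out 11 members could not be followed. Calves with the same replicate number showed little shared deviation (correlations -0.15 to 0.21, 1 of 5 best with its own number). A pairing by number was thus not seen, although these values cannot exclude one. With the replicate block, which takes nothing from elevated 6, 14 genes were at an unadjusted p under 0.05 (10.1% of all probe sets). In that setting 0 genes were past the adjusted threshold. The arrays carry no detection call, so dim members cannot be told from background.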
